A study of Mus musculus with 6 samples.

Results

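Integrins are the receptors by which cells hold on to the matrix, and the focal adhesion proteins tie their cytoplasmic tails to actin. The 38 genes described here, of 57180 in the table, were chosen by gene name alone: 18 integrin alpha subunit genes, 8 beta subunit genes and 12 genes of proteins that link integrins to actin or signal from them. No measured value entered that choice of names, but the group was proposed with earlier results of the same comparison known. Its counts are therefore given as a description beside those over all genes, and nothing about the group as a whole is read from them.

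The RNA came from embryonic stem (ES) cells of mouse strain C57BL/6, in 3 libraries of wild-type (WT) cells and 3 of cells with genotype Mpp8/Tasor dko (dKO, called MPTA in the sample titles). MPP8, encoded by Mphosph8, and TASOR are subunits of the human silencing hub (HUSH), which represses retroelements and some genes in heterochromatin. The labels name no other allele or treatment, and do not say whether the libraries of a genotype came from separate cultures or clones, so the p-values measure the spread between these libraries only. Estimated counts summed to between 18384774 and 24910498 per library. Counts of Mphosph8 were 2159, 3597 and 2173 in the WT libraries against 1, 4 and 3 in dKO, and Tasor fell from 2631, 4932 and 2567 counts to 180, 196 and 204. All 8 ES cell markers examined, Pou5f1, Sox2 and Nanog among them, were expressed and not called different.

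An integrin is a pair of 1 alpha and 1 beta chain, and the pairing decides what it binds. Itga3, Itga6 and Itga7 encode chains of laminin receptors, mostly with Itgb1, and Itga6 also pairs with Itgb4. Itga5 and Itgav encode receptors for fibronectin and vitronectin that read the RGD sequence. Talin (Tln1, Tln2) and kindlin (Fermt1, Fermt2) bind beta tails and switch integrins on, and ILK, PINCH (Lims1) and parvin (Parva) form a complex that carries the link to actin. ES cells attach through laminin and fibronectin receptors, which also feed into the choice between self-renewal and differentiation.

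WT replicate 2 stood apart from the other libraries. It lay at 45.2 on the second principal component, which held 15.4% of the variance, with the other libraries between -29.7 and 11.3. Mitochondrial genes took 2.29% of its counts (1.34% to 1.63% elsewhere) and ribosomal protein genes 2.7% (3.48% to 4.85% elsewhere). Some members moved with it: its CPM (counts scaled to library size with TMM factors) was 1.31 times the mean of the other WT libraries for Itgb1 and Fermt2, 1.24 times for Itga6, 0.743 times for Itgb4 and 0.551 times for Itga2b. Values without that library are given for these 5 genes and where it changes a call.

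Of the 38 genes, 29 had enough counts for a test, all of them in both genotypes. In dKO, 5 rose and 13 fell, and 11 were not called, at an adjusted p under 0.05 in edgeR's quasi-likelihood fit over all genes. Over all 15714 genes tested, 34.3% were called, 16.4% higher and 17.9% lower. A change of at least 2-fold was called for 9 members, 3 higher and 6 lower, where 13.4% of all tested genes passed the same threshold. Without WT replicate 2 that count was 6, as Itga2b (log2 0.91) and Parva (log2 -0.99) came under 2-fold and Fermt1 (log2 -0.87, edgeR adjusted p = 0.0823) lost its call. Values of the genotypes were fully separated for 22 of the 29, and for 49.2% of all tested genes. The median log2 fold change was -0.15 over the tested members and -0.02 over all tested genes. The plot of CPM by library shows the spread behind these counts.

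**Figure D1:**
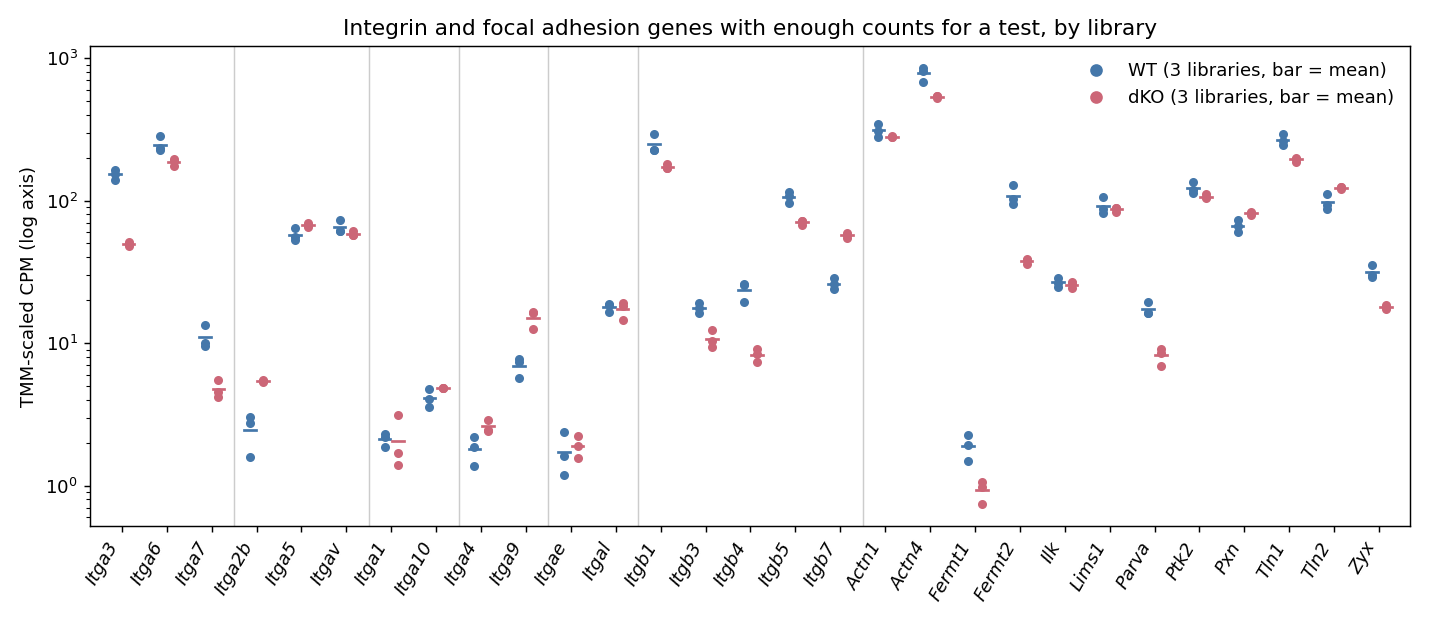
TMM-scaled CPM on a log axis for the 29 tested members, grouped by role (laminin-binding, RGD-binding and collagen-binding alpha, Itga4 and Itga9, leukocyte alpha, beta, linkers); points are single libraries, 3 per genotype, and bars are means. Itga3, Itgb4 and Fermt2 lie lower in all dKO libraries, and Itga2b, Itga9 and Itgb7 lie higher.

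The laminin receptor alpha genes, a class of 3, were the 1 integrin class in which every member fell. Over all tested genes, 17.9% were lower. Itga3 had 164, 139 and 154 CPM in WT and 51.1, 49.8 and 48.2 CPM in dKO. The dKO libraries agreed within a few CPM and lay far under the lowest WT library. Its log2 fold change was -1.62 (SE 0.0935, edgeR adjusted p = 3.61e-06), so that WT was 3.07-fold higher. Itga7, whose product is best known as the laminin receptor of muscle, fell from 13.3, 9.59 and 9.99 CPM to 4.5, 4.18 and 5.52 CPM (log2 -1.21, SE 0.188, edgeR adjusted p = 0.00118). It too showed no overlap, at the lowest level per length of the 3.

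Itga6 had the highest WT level of all alpha genes per unit of length, 118 ± 34.2 TPM (TPM values as deposited, normalised for length, SD, n = 3). In CPM it had 233, 283 and 225 in WT and 194, 190 and 174 in dKO. The fall was small beside that of Itga3, with a log2 fold change of -0.41 (SE 0.105, edgeR adjusted p = 0.0147). Without WT replicate 2 it was -0.30 (edgeR adjusted p = 0.00614), and leaving out any 1 dKO library ended the call, with adjusted p over all alternatives from 0.00169 to 0.0755.

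Among the RGD-binding alpha genes only Itga2b was called. Itga2b encodes the alpha chain of the platelet fibrinogen receptor and is also an early marker of blood precursors. It rose from 2.76, 1.59 and 3.02 CPM to 5.42, 5.53 and 5.31 CPM (log2 1.16, SE 0.248, edgeR adjusted p = 0.0064). Its dKO libraries were nearly equal while the WT libraries were spread, with replicate 2 the lowest. Without that library the value was 0.91 (edgeR adjusted p = 0.00384). The deposited TPM of Itga2b overlapped between genotypes, with WT replicate 3 (3.04 TPM) above dKO replicate 3 (3.0 TPM). The fibronectin receptor gene Itga5 had 57.2 ± 5.79 CPM in WT and 67.2 ± 2.17 in dKO (SD, n = 3). It was not called (log2 0.23, edgeR adjusted p = 0.112), although its libraries did not overlap. Itgav, at 64.9 ± 6.75 and 58.6 ± 2.56 CPM, overlapped and was not called. Itga8 had 1 to 15 counts per library and was not tested.

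Itga9, which encodes a receptor for tenascin C and VCAM1, rose from 7.72, 7.38 and 5.65 CPM to 16.2, 16.4 and 12.6 CPM. The lowest dKO library was above the highest WT library, and the log2 fold change was 1.12 (SE 0.172, edgeR adjusted p = 0.00113). Its relative Itga4 had 1.82 ± 0.419 CPM in WT and 2.6 ± 0.262 in dKO and was not called (log2 0.51, SE 0.258, edgeR adjusted p = 0.161). Of the collagen receptor genes, Itga1 and Itga10 had log2 fold changes of -0.05 and 0.23 and were not called. Itga2 and Itga11 had at most 9 counts in any library.

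Alpha genes of leukocyte integrins differed widely in level. Itgal, the alpha chain of the leukocyte receptor LFA, had 18 ± 1.2 CPM in WT and 17.3 ± 2.56 in dKO and was not called. Its only known partner gene, Itgb2, had 1 to 8 counts per library and could not be tested. The leukocyte marker Ptprc was also near 0, with at most 5 counts in a library, and Lyz2 had 2 counts in 1 library and none elsewhere. Other genes of the 8 leukocyte markers were expressed, and their summed level was 120 to 126 CPM in WT and 52.2 to 57.4 in dKO, mostly Laptm5 and Cd68. Itgae had under 3 CPM in every library and was not called. Itgam had 0, 5 and 1 counts in WT and 6, 15 and 6 in dKO, Itgad had 1 count in all, and Itgax had none in any library.

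All 5 tested beta subunit genes were called, 4 lower and 1 higher, beside 17.9% lower and 16.4% higher over all tested genes. Itgb1, the common partner of most alpha chains, had 225, 295 and 225 CPM in WT and 168, 180 and 169 CPM in dKO. WT replicate 2 was the highest library, and the log2 fold change of -0.52 (SE 0.117, edgeR adjusted p = 0.00752) became -0.38 without it (edgeR adjusted p = 0.000852). Itgb5, a partner of Itgav in vitronectin receptors, fell from 106 ± 8.98 to 70.4 ± 2.36 CPM (log2 -0.59, edgeR adjusted p = 0.00137). Itgb3, the other vitronectin receptor partner and the partner of Itga2b, fell from 17.7 ± 1.4 to 10.7 ± 1.52 CPM (log2 -0.72, edgeR adjusted p = 0.00425). Itga2b and Itgb3 thus differed in direction.

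Itgb4 fell furthest among the beta genes. It encodes the chain that pairs with the product of Itga6 in hemidesmosomes, the anchors of epithelia to laminin. It had 26.1, 19.3 and 25.7 CPM in WT and 9.09, 8.31 and 7.3 CPM in dKO, with no overlap (log2 -1.52, SE 0.159, edgeR adjusted p = 0.000118, and -1.65 without WT replicate 2). Its deposited TPM were 9.59 to 11.75 in WT and 3.48, 5.75 and 8.45 in dKO replicates 1, 2 and 3, so that the dKO libraries ranked in the opposite order from their CPM.

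Itgb7 was the 1 beta gene that rose. Its product pairs with those of Itga4 and Itgae on lymphocytes. It had 26.1, 23.8 and 28.5 CPM in WT and 57.6, 55 and 59.6 CPM in dKO, a log2 fold change of 1.14 (SE 0.107, edgeR adjusted p = 5.93e-05). The gap between genotypes was wider than the range within either. Neither partner gene was called, and Itga4 and Itgae stayed under 3 CPM. Itgb6 and Itgb8, whose products activate latent TGF-beta with the product of Itgav, had at most 7 counts in any library.

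**Figure D2:**
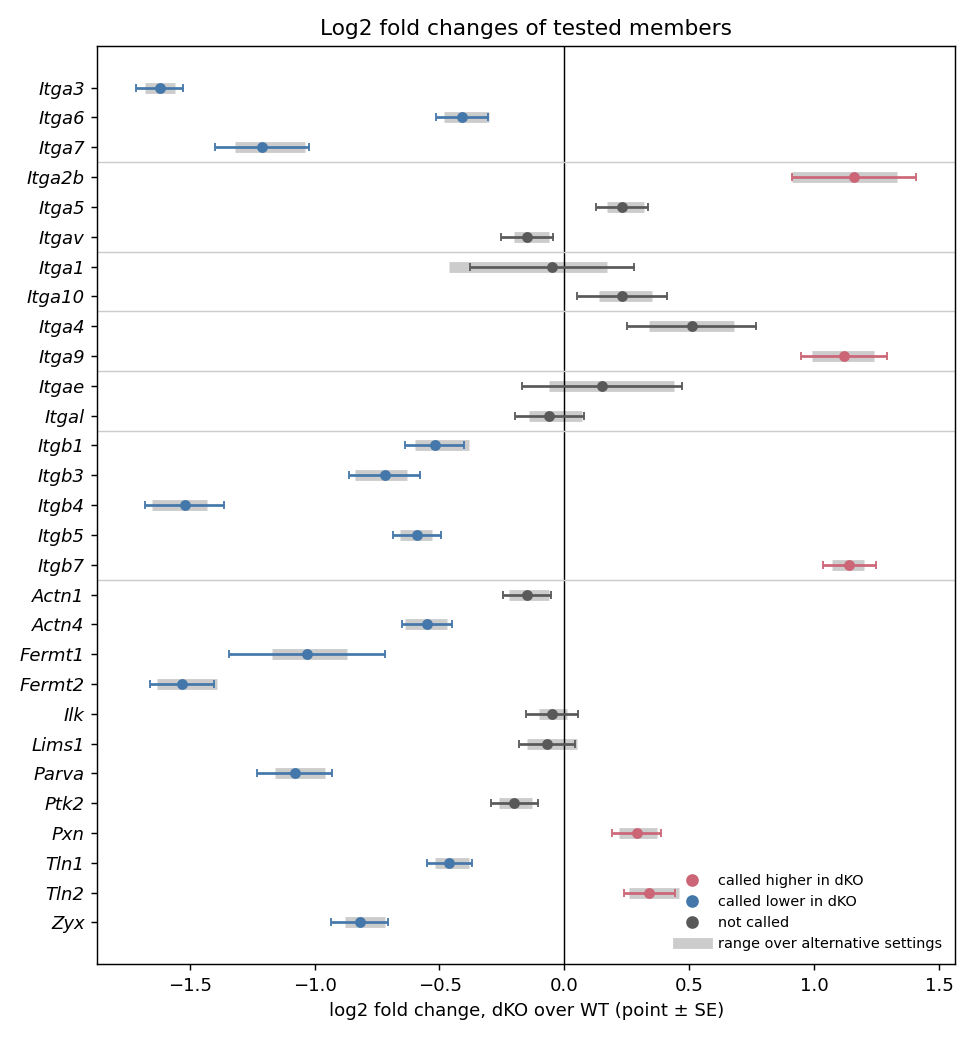
Log2 fold change of dKO over WT for the 29 tested members in order of role; points are estimates with their SE, colour gives the call, and grey bars span the values under 11 alternative settings. The bars of all 18 called genes stay on 1 side of 0.

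Per unit of length, the make-up of the alpha and beta transcripts differed between genotypes. In WT the alpha genes ranked Itga6, Itga3 (58.7 ± 8.3 TPM, SD, n = 3), Itga5 (21.2 ± 2.71) and Itgav (18.9 ± 3.63), and the last 2 of these overlapped. In dKO Itga6 was again first with 90.6 ± 11.6 TPM, while Itga5, Itgav and Itga3 followed at 25.5, 19.4 and 18.1 TPM, each overlapping the next. As a share of all alpha TPM, Itga3 had 28.3%, 21.2% and 25.5% in WT and 10.1%, 10.6% and 9.35% in dKO. The share of Itga6 overlapped, at 49.1% ± 4.78 and 50.4% ± 0.736. The ratio of Itga6 to Itga3 TPM was 1.62, 2.58 and 1.84 in WT and 5.07, 4.71 and 5.38 in dKO.

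Among beta transcripts the share of Itgb7 was larger in dKO. In WT the order was Itgb1 (105 ± 35.2 TPM), Itgb5 (59.4 ± 6.37), Itgb7 (23.4 ± 3.51), Itgb4 (10.8 ± 1.09) and Itgb3 (4.71 ± 0.445), with no overlap between neighbours. In dKO Itgb7 stood second with 49.7 ± 5.31 TPM, above Itgb5 at 39.6 ± 4.94, and Itgb4 and Itgb3 overlapped. The Itgb7 share of beta TPM was 13.9%, 8.51% and 13% in WT and 31%, 24.9% and 30.4% in dKO. That of Itgb5 was 31.2%, 26.1% and 31.3% in WT and 22.4%, 24.2% and 21.8% in dKO. The Itgb1 share was 46.5%, 58.8% and 47.2% in WT and 42.5%, 46.1% and 40.7% in dKO. Apart from WT replicate 2, the Itgb1 shares of the genotypes lay close together. Summed alpha TPM (238 ± 46.3 in WT, 180 ± 23 in dKO) and summed beta TPM (204 ± 40.5 and 173 ± 13.4) both overlapped. WT replicate 2 had the highest sum of each.

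**Figure D3:**
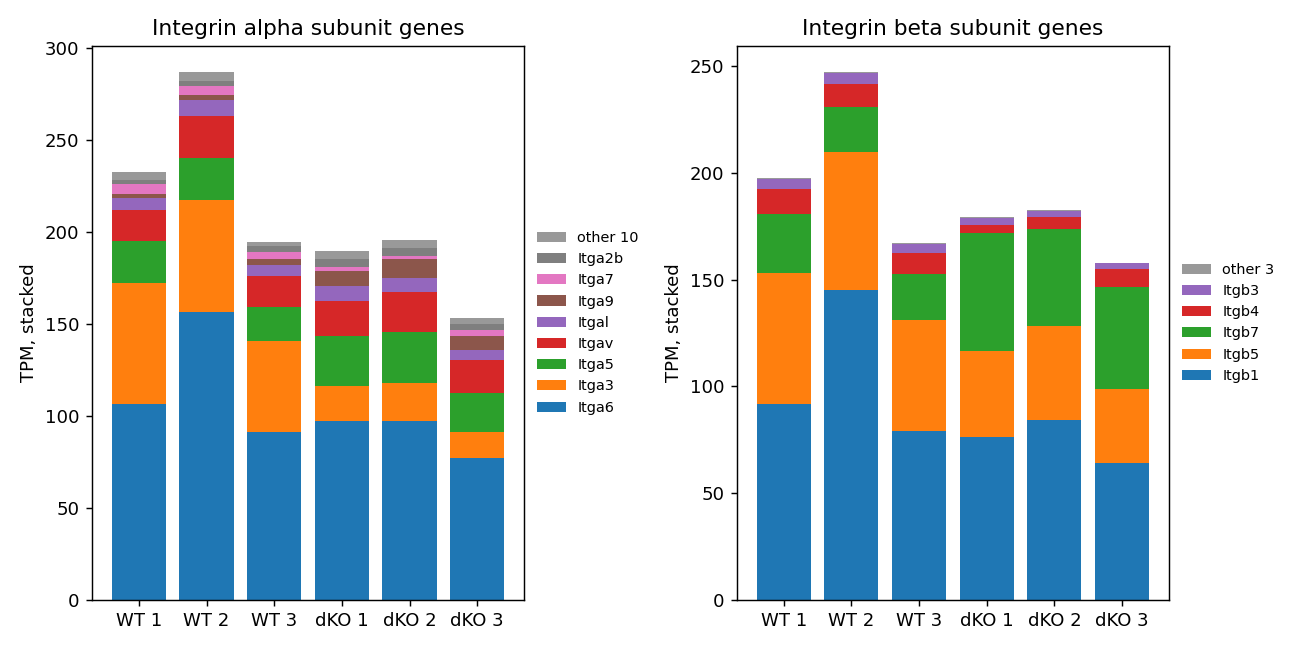
Stacked TPM of integrin alpha genes (left) and beta genes (right) in each library, from 0. Itga3 narrows from 58.7 to 18.1 TPM on average and Itgb7 widens from 23.4 to 49.7, while the bar of WT replicate 2 is the tallest in both panels.

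Among the 12 linker genes, all tested, 2 rose, 6 fell and 4 were not called, beside 16.4% higher and 17.9% lower over all tested genes. Both kindlin genes among the members fell. Fermt2, the kindlin of most adherent cells, had 102, 128 and 93.8 CPM in WT and 38.6, 38 and 35.6 CPM in dKO (log2 -1.53, SE 0.128, edgeR adjusted p = 3.09e-05), with no overlap, and -1.39 without WT replicate 2. Fermt2 is the 1 member on chromosome 14, which also carries Mphosph8 and Tasor. There, 370 of 525 tested genes were lower and 32 higher, with a median log2 fold change of -0.94. Its 24 nearest tested neighbours, 12 on each side, had a median of -0.84 with an interquartile range of -1.07 to -0.55. The fall of Fermt2 was larger than that median. The part of the chromosome in it was not tested. Fermt1, the kindlin of epithelia, had 1.49, 2.28 and 1.92 CPM in WT and 1.06, 0.981 and 0.736 in dKO (log2 -1.03, SE 0.313, edgeR adjusted p = 0.0304). That call was lost in 6 of 11 alternatives, with adjusted p from 0.0299 to 0.101, and Fermt1 was not called in the authors' deposited table (adjusted p = 0.0703).

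The talin genes went opposite ways. Tln1, the talin found in nearly all cells, had 294, 247 and 261 CPM in WT and 196, 200 and 186 CPM in dKO (log2 -0.46, edgeR adjusted p = 0.00397). Tln2, its close relative, rose from 97.3 ± 12.5 to 123 ± 2.14 CPM (log2 0.34, edgeR adjusted p = 0.0297), a call lost without WT replicate 3 or any 1 dKO library (adjusted p over alternatives 0.00865 to 0.0988). The ratio of Tln1 to Tln2 TPM was 3.09, 2.35 and 3.16 in WT and 1.76, 1.71 and 1.75 in dKO, without overlap.

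Of the members Ilk, Lims1 and Parva, whose products form the ILK, PINCH and parvin complex, only Parva was called. Parva fell from 16.2, 19.4 and 16.3 CPM to 8.51, 9.14 and 6.94 CPM (log2 -1.08, SE 0.151, edgeR adjusted p = 0.000651), with no overlap. Parvb, another parvin gene, is not a member and was chosen after its value was seen. It fell from 46.3 ± 2.15 to 23.8 ± 1.6 CPM (log2 -0.96, edgeR adjusted p = 0.000136). Ilk had 26.6 ± 1.77 CPM in WT and 25.7 ± 1.32 in dKO (log2 -0.05, SE 0.105), and Lims1 had a log2 fold change of -0.07 (SE 0.112). The sign of both depends on the setting, as Ilk was at 0.01 with library totals and Lims1 at 0.05 without WT replicate 2.

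Of the genes for signalling and actin-binding proteins, 3 were called. Zyx, encoding the LIM protein zyxin that gathers at adhesions under tension, fell from 35.5, 30.2 and 29.2 CPM to 18.6, 17.8 and 17.3 CPM (log2 -0.82, edgeR adjusted p = 0.000646). Actn4, an actin cross-linker and the linker gene with the highest level per length (364 ± 47.2 TPM in WT), fell from 782 ± 88.4 to 535 ± 8.12 CPM (log2 -0.55, edgeR adjusted p = 0.00264). No call was made for its relative Actn1 at log2 -0.15 (edgeR adjusted p = 0.255, and 0.0296 without WT replicate 2, range over alternatives 0.0296 to 0.665). Pxn, encoding the adaptor paxillin, rose from 66.6 ± 6.31 to 81.3 ± 1.82 CPM (log2 0.29, edgeR adjusted p = 0.0471), a call lost in 6 of 11 alternatives (adjusted p 0.0217 to 0.16). Ptk2, the focal adhesion kinase gene, had 122 ± 11.2 and 106 ± 3.89 CPM and was not called (log2 -0.20, edgeR adjusted p = 0.122).

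Promoters of genes with a 2-fold change are shown so that those that fell can be set beside those that rose. Of the 38 genes, 26 have a RefSeq promoter entry (GRCm38.p6, not the GRCm39 build that the submitters name). Itga7, Itgb4 and Parva, which also fell at least 2-fold, have no entry, so the side that fell is shown in part. The 250 bases before the annotated start are given 5′ to 3′ on the gene's strand. Capitals mark matches, on either strand, to any of 6 motifs: the GC box GGGCGG, the TEAD motif GGAATG, the CCAAT box, the AP-1 motif TGANTCA, the octamer ATGCAAAT and the CArG box bound by SRF. Itga3 (chr11:95076715-95076964, minus strand, the entry richer in G and C of its 2) and Fermt2 (chr14:45530066-45530315, minus strand) fell. Itgb7 (chr15:102231936-102232185, minus strand), Itga9 (chr9:118711442-118711691, plus strand) and Itga2b (chr11:102469884-102470133, minus strand) rose. Fermt1, which also fell by this measure, has an entry whose transcribed bases were not found in its GENCODE M21 transcripts and is not shown.
Itga3: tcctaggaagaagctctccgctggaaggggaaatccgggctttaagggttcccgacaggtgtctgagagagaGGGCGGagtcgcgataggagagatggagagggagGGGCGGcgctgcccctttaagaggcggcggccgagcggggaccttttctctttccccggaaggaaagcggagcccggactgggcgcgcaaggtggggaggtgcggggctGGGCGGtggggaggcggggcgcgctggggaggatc
Fermt2: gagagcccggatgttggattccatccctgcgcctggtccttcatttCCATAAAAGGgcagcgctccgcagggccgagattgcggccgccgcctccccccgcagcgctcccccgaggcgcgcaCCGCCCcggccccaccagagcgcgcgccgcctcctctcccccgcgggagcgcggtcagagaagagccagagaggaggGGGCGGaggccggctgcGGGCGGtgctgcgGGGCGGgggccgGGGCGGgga
Itgb7: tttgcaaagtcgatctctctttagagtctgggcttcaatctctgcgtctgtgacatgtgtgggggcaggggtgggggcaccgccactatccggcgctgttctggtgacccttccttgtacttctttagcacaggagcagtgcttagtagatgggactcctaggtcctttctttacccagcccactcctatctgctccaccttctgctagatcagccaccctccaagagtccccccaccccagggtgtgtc
Itga9: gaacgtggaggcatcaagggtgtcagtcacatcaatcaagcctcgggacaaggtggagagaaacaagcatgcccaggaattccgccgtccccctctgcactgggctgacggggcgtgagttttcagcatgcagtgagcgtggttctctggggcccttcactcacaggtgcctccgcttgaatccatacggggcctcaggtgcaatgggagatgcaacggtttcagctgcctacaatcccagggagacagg
Itga2b: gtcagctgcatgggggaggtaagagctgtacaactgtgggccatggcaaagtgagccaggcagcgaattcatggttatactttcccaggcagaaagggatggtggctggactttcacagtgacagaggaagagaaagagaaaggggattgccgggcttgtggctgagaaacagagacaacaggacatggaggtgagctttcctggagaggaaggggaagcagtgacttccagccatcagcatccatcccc

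The Itga3 and Fermt2 windows held 67.6% and 76% G or C and 22 and 31 CpG dinucleotides, with 3 and 5 GC boxes. Fermt2 also held 1 CArG box. The windows of Itgb7, Itga9 and Itga2b held 56%, 58.4% and 54% G or C and 5, 10 and 2 CpG, and none of the 6 motifs. The Itga3 entry that is not shown held 50.8% G or C and 5 CpG, with 1 GC box and 1 CCAAT box. That of Fermt1 held 52.4% G or C and 5 CpG, with 1 GC box. Both values of G or C are below those of the 3 genes that rose. The Itga3 entry shown was the richer 1, so no contrast in G or C between genes that fell and rose is read here. Over 32851 promoters in the table the median was 52.4% G or C and 6 CpG. There, 32.7% of windows held a GC box, 12.6% the TEAD motif, 33.8% CCAAT, 6.75% the AP-1 motif, 1.6% the octamer and 1.47% a CArG box. Among the 31 entries of members, 14 held a GC box, 3 TEAD, 6 CCAAT, 3 AP-1, 2 CArG and 0 the octamer. The window of Tln1, which fell, also held none of the 6. Such matches describe the letters only.

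Other genes of the adhesion machinery, from a list of 85 that holds no member, were mostly lower where called. Of 79 tested, 34 fell, 6 rose and 39 were not called, with a median log2 fold change of -0.28. The shares over all tested genes were 17.9% lower and 16.4% higher. The 3 with the smallest p were Tns3, Csrp1 and Ptk2b. Tns3, encoding an adhesion adaptor of the tensin family, fell from 252 ± 9.4 to 120 ± 5.35 CPM (log2 -1.07). Its relative Tns1, chosen after its value was seen, rose from 10.4 ± 0.312 to 22.3 ± 1.64 CPM (log2 1.09, edgeR adjusted p = 0.000141). Tns2, chosen in the same way, was not called. Csrp1, a LIM protein gene, fell by 1.16 and Ptk2b, the relative of Ptk2, by 1.33 on the log2 scale. Ptk2b is on chromosome 14, as are 6 genes of the list, 5 of them lower. Vcl, encoding the talin partner vinculin and chosen after its value was seen, is the sixth, and had 124 ± 15.2 CPM in WT and 107 ± 6.77 in dKO without a call (log2 -0.22, edgeR adjusted p = 0.15). Without dKO replicate 2 the list held 25 called genes in place of 40.

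Integrin ligand genes went both ways, with 13 of 41 tested higher, 12 lower and 16 not called (median -0.07), beside 16.4% higher and 17.9% lower over all tested genes. Tnc, encoding tenascin C, rose from 1.16 ± 0.444 to 58.5 ± 5.14 CPM. The laminin chain gene Lama1 fell from 225 ± 12.1 to 50.1 ± 1.72 CPM. Laminin chain genes did not all fall: chosen after its value was seen, Lama3 rose from 76 ± 8.36 to 174 ± 5.67 CPM (log2 1.19, edgeR adjusted p = 3.08e-05). Also chosen after their values were seen, Fn1 (fibronectin) rose from 821 ± 83.4 to 1750 ± 128 CPM (log2 1.09, edgeR adjusted p = 6.93e-05), and Vcam1 had no counts in WT and 23, 34 and 29 in dKO. That is at least 29.7-fold higher, against 3 counts over the WT libraries together. Vcam1 could pass the count filter only through dKO. No relation between ligand and receptor was tested.

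Of 26 genes driven by SRF or YAP or encoding actin and its binding proteins, 14 fell, 4 rose and 8 were not called (median -0.46), beside 17.9% lower and 16.4% higher over all tested genes. Of the 26, 8 are also in another list. Tpm4 and Tpm1, tropomyosin genes, fell from 103 ± 9.13 to 48.1 ± 1.1 CPM and from 174 ± 2.53 to 93.4 ± 6.67 CPM. Ccn2, a matrix protein gene widely read as a YAP target, rose from 64.2 ± 3.29 to 124 ± 1.75 CPM. Its relative Ccn1, chosen after its value was seen, fell (log2 -0.76, edgeR adjusted p = 0.000783).

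**Figure D4:**
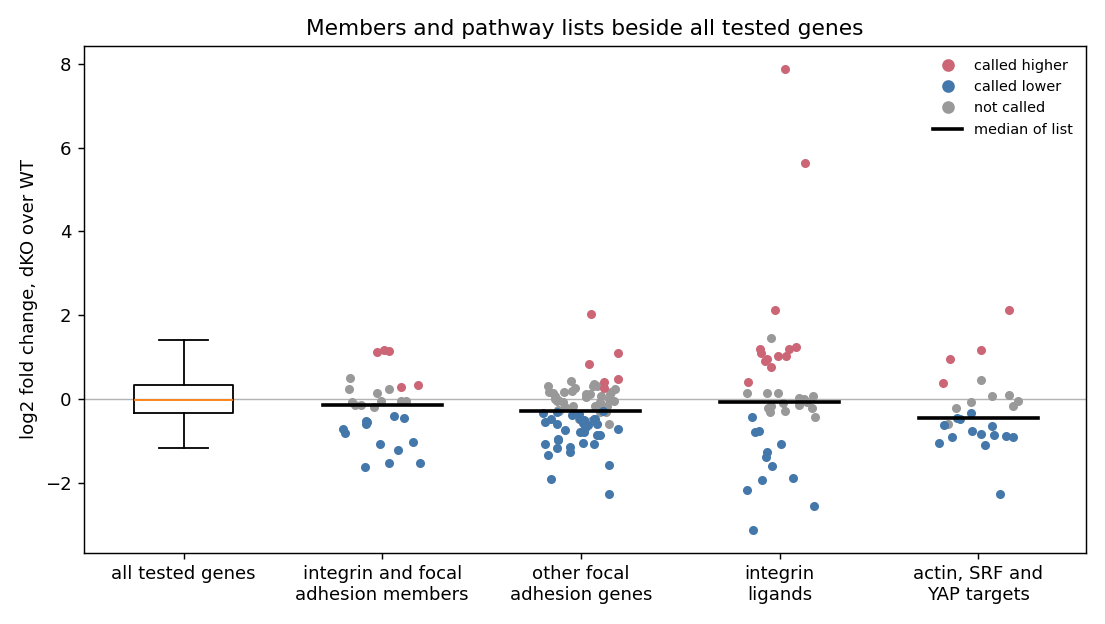
Log2 fold change of dKO over WT for the tested members and for the pathway lists, with a box for all 15714 tested genes (median, quartiles and 5th to 95th percentiles); black bars are medians, -0.15, -0.28, -0.07 and -0.46 from left to right. The highest point, Vcam1, had no counts in WT, so its fitted value is no measure of size.

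Some markers of other cell types differed between genotypes. The counts of calls below stand beside 17.9% lower and 16.4% higher over all tested genes. Summed CPM of 9 trophoblast markers was 303 to 430 in WT and 61.8 to 66.6 in dKO, with 7 of 8 tested lower. The trophoblast factors Cdx2 and Elf5 were at 0.457 and 3.35 CPM in WT and 0.0494 and 0.102 in dKO, and Cdx2 had too few counts for a test. Eomes, the 1 tested trophoblast marker without a call, had 10.2 CPM in WT and 9.55 in dKO (log2 -0.1). For 8 primitive endoderm markers the sums were 226 to 246 and 56.3 to 59.4 CPM, most of it Lama1, with 3 lower and 1 higher of 6 tested. For 8 fibroblast and feeder markers they were 29.8 to 40.7 and 44.4 to 47.4 CPM, with 3 higher of 7 tested. Platelet markers were at or under 1.43 CPM in sum, with Pf4 and Gp9 at 0 in all libraries. For 5 muscle markers the sums were 30.8 to 40.1 and 53.2 to 53.9 CPM, with 1 higher of 3 tested. Most of that sum was the 1 called gene, Myh3, at 23.8 CPM in WT and 40.3 in dKO. In bulk RNA, fewer cells of a type and less RNA per cell cannot be told apart. The part of these cells in the lower Itga3, Itgb4, Fermt1 and Lama1 values and in the other changes was not tested.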

How the data were processed

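Per the submitters' processing notes, FastQC, HISAT2 2.1.0, RSEM, DESeq 1.26.0 and GRCm39 were used, with no roles stated. The authors deposited expected counts (estimated counts per gene), of which 24.6% of the values above 0 were not whole. They were rounded here. The deposited TPM per library were used for levels and shares only, with no test. The authors' deposited fold (ratio), log2 fold change, p-value and adjusted p-value are quoted only by that name. No source used here says whether counting used strand, so genes that share exon bases with others on the opposite strand (in GENCODE M21, Actn1, Actn4, Ilk, Itga4, Itga7, Itga8, Itgad, Itgav, Itgb4, Tln1 and Zyx) are uncertain. Itga1, Itga10, Itgad and Itgam share exon bases with a gene on the same strand there, and are uncertain either way. Of the tested members, 14 had counts that were not whole in at least 1 library, so that reads were shared by a model.

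All genes were fitted in edgeR 4.0.16 (R 4.3.3): filterByExpr, TMM scaling, robust quasi-likelihood test by genotype, Benjamini-Hochberg adjustment over 15714 genes, calls at 0.05. SE is the size of the log2 value over the root of F. CPM use TMM-scaled totals, and 3 counts, the limit a count of 0 allows, are 0.122 to 0.165 CPM by library (counting error only). The common biological coefficient of variation was 0.156. Steps were tested on simulated data. Members, lists and tests were chosen with earlier results of these data known. Every member is named. Of each list the 3 genes with the smallest p are named, except 1 that is not reported here, and others are marked. Chromosomes came from GENCODE M21, which matched 51884 of 57180 genes. Promoters came from RefSeq (GRCm38.p6). In 5 of 31 entries, the bases after the start (positions 11 to 40) were found in no GENCODE M21 transcript of that gene, and none of these is printed. Alternatives were library totals, DESeq2 1.42.0, no low-count filter, a replicate block, each library left out, and no genes of chromosomes 14 and Y. Python 3.11.15, pandas 2.3.3, NumPy 2.4.6 and matplotlib 3.10.9 were used.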

Additional observations from a re-analysis of the deposited data

How the results depend on the processing

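Over 11 alternatives, 14 of the 18 called members kept their call, and 10 of the 11 uncalled members were called in none. The exceptions were Itga6, Fermt1, Pxn, Tln2 and Actn1, given in the report. Leaving out 1 library gave 3588 to 6833 called genes over the whole table (5392 with all libraries), 3 to 5 members higher, 11 to 13 lower, 6 to 9 called at 2-fold or more, and 25 to 44, 20 to 25 and 14 to 19 called genes in the adhesion, ligand and actin lists. The lowest whole-table count was without dKO replicate 1, and 3 higher members were left without WT replicate 3 or any 1 dKO library. DESeq2 called 5 members higher and 12 lower. Signs changed in uncalled members only. With library totals Ilk, Itga1 and Itgal each came to 0.01, and leaving out libraries gave -0.46 to 0.17 for Itga1, -0.06 to 0.44 for Itgae, -0.14 to 0.07 for Itgal and -0.15 to 0.05 for Lims1. Fermt2 has no value without chromosome 14. The median over all tested genes moved from -0.016 to 0.046 at most. The labels do not say whether same-numbered libraries share more than the number. Deviations of same-numbered libraries correlated at -0.0763, 0.273 and 0.329 for replicates 1, 2 and 3. Of the 6 libraries, 4 correlated best with their own number in the other genotype. With that number as a replicate block 6794 genes were called, with 5 members higher and 13 lower. The low-count filter left 9 members untested, and 37 members were tested without it.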

Other observations

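For some members the deposited TPM moved apart from the counts. A length implied by counts over TPM was computed for 24 members with at least 50 counts in every library, scaled so that the median gene with 500 or more counts matched its deposited length. For Itgb4 the implied length was 3935, 3688 and 4092 bases in WT and 5116, 2915 and 1425 bases in dKO replicates 1, 2 and 3, a range of 3.59-fold against a deposited length of 5779 bases. Itga9 ran from 2654 to 5293 bases, 1.99-fold, and Itga10 1.85-fold. For Itgb1 the range was 1.02-fold and for Itgb3 1.03-fold. The implied length overlapped between genotypes for Itgb4, Itga9 and Itga10. In dKO, TPM of Itgb4 and Itga10 were more spread relative to their means than CPM. Itgb4 had 5.89 ± 2.49 TPM and 8.24 ± 0.896 CPM there, and Itga10 1.66 ± 0.201 TPM and 4.84 ± 0.0107 CPM (SD, n = 3). In WT this held for Itga10 but not Itgb4, and for Itga9 it held in neither genotype. For 4 members, Itga3, Itgb5, Itgal and Tln1, the implied length did not overlap: Itga3 had 4406 to 4811 bases in WT and 4850 to 5540 in dKO. Transcripts were not analysed one by one.

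Itgal was measured at a steady 14.4 to 19.2 CPM in all libraries while Itgb2, the gene of its partner chain, stayed at or under 8 counts. In the other direction, Itgb7 reached 57.4 ± 2.33 CPM in dKO while Itga4 and Itgae, the genes of its partners, were at 2.6 ± 0.262 and 1.89 ± 0.338 CPM. These are values per gene, not per length, and are not compared as levels.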
